A study of Homo sapiens with 12 samples.

Results

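Chromosome arms 8q, 16q and 17q are partly gained in HCT116, a cell line derived from a human colorectal carcinoma, and the 2793 accessible regions that start on them, of 30170 in the count table, are described here. A region was placed on 8q where it started at or beyond 46 Mb of chromosome 8, on 16q at or beyond 47 Mb of chromosome 16 and on 17q at or beyond 27 Mb of chromosome 17 (hg38). This gave 1695 regions on 8q, 403 on 16q and 695 on 17q, chosen by position alone. Accessibility was measured by ATAC-seq, in which a transposase inserts sequencing adapters into open chromatin, in 4 derivatives of HCT116 with 3 libraries each. EV cells carried an empty vector, EHF cells the ETS-family transcription factor EHF, CDX1 cells the caudal homeobox transcription factor CDX1, and EHF+CDX1 cells both factors. EHF was delivered by a plasmid, after which geneticin-resistant clones were isolated, and CDX1 by a retrovirus that also encodes GFP, after which GFP-positive cells were sorted. EHF+CDX1 cells were CDX1 cells that received the EHF plasmid and were selected as resistant clones, so a clone's own karyotype and the presence of both factors cannot be told apart. The methods give an empty vector control of the EHF plasmid, selected in the same way. A clone's karyotype thus cannot be told apart from the presence of EHF in EHF cells either, and may enter the EV baseline. No label says that the 3 libraries of a group came from separate cultures, and p-values then measure only the spread between these libraries, which may be technical.

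A gain of a chromosome arm adds DNA copies of every gene and regulatory element on it, and more copies give the transposase more template. In ATAC-seq data a gain therefore tends to raise the counts of neighbouring regions together over long distances, whereas a transcription factor opens or closes single elements. Copies of the DNA and accessibility per copy cannot be told apart in these counts. 8q carries the MYC oncogene and long stretches with few genes, 16q the metallothionein cluster and several cadherin genes, and 17q the HOXB cluster and a keratin cluster.

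Libraries were shallow. Totals ran from 567366 to 2443334 counts and the median region held 2 to 22 counts. Mitochondrial-like sequence drew between 65.0% and 73.8% of each EV library and between 14.5% and 37.2% of the other 9. Of the 192 such regions, 13 lay on the arms, and they were left out of all sums, which left 2780 regions. EHF+CDX1 replicate 2 stood apart. Its median region held 22 counts, where the other EHF+CDX1 libraries had 5 and 7. Exons of EHF and CDX1, none of which lie on the arms, took 9.99% of its counts, against 34.7% to 78.4% in the other 8 libraries that carry a transgene and at most 0.0329% in EV libraries. The part of this library's own features in the results below was not tested, and calls are also given without it. Its median region beyond 1 kb of a start site held 0.8 times the counts of its median start-site region, against 0.4 to 0.714 in the other 11 libraries. This trait was shared with its number, since replicate 2 had the highest such ratio in every group (0.714 in EV, 0.692 in EHF and 0.636 in CDX1 cells). Replicate 2 also had the highest median count in every group. Of the epithelial marker genes, EPCAM, KRT8, KRT18 and KRT19 had regions at a start site and CDH1 had none. In EV libraries these held 8 to 15 counts at EPCAM, 6 to 17 at KRT8, 0 to 4 at KRT18 and 4 to 6 at KRT19. The leukocyte genes PTPRC and CD3E, the endothelial genes PECAM1 and CDH5 and the fibroblast gene PDGFRB had none. The fibroblast genes COL1A1 and COL1A2 had 6 to 17 and 1 to 2 counts in EV libraries. COL1A1 thus had as many counts as KRT8, and the counts alone do not set epithelial from fibroblast markers apart.

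The regions were most crowded on 8q. 8q held 17.1 regions per Mb, the highest density of the 27 segments compared, which were the 3 arms, the rest of chromosomes 8, 16 and 17, and the other chromosomes. 17q held 12.4 regions per Mb and ranked 4, and 16q held 9.30 and ranked 16. The autosomes outside the 3 arms, called the other autosomes from here on, held 9.96 per Mb. Density before the start of each arm was lower, with 7.98 regions per Mb on chromosome 8, 7.62 on chromosome 16 and 10.2 on chromosome 17.

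The high density of 8q did not go with many genes. 8q had 4.22 protein-coding gene starts per Mb, 16q 8.65 and 17q 14.9, against 6.53 on the other autosomes. Per protein-coding start there were 4.06 regions on 8q, 1.07 on 16q, 0.827 on 17q and 1.53 on the other autosomes. The make-up of the arms differed in the same order. Of the 8q regions, 32.6% lay no more than 1 kb from an annotated start of transcription, against 53.1% on 16q, 65.3% on 17q and 46.7% on the other autosomes. Introns held 742 of the 8q regions, exons 440 and intergenic sequence 513. On 17q exons held 341 of 695. Mean GC content was 54.0% on 8q, 61.1% on 16q and 61.8% on 17q. The median region was 151 bp long on 8q and 17q and 152 bp on 16q, counting both end bases.

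Along 8q density was lowest at the centromeric end and highest at the tip. The first 10 Mb bin (46 to 56 Mb) held 8.80 regions per Mb and the second 11.9, the bins from 66 to 136 Mb held 15.5 to 21.5, and the last bin, from 136 Mb to the end, held 23.6. The bin from 106 to 116 Mb had the fewest protein-coding starts, 17, and 155 regions, or 9.12 regions per start. On 16q density fell from 7.80 in the first bin to 3.90 in the second (57 to 67 Mb), then rose to 9.90, 12.6 and 18.3 towards the tip. On 17q the first bin held 7.10 and the bin from 67 to 77 Mb 16.5. The bin from 37 to 47 Mb, which spans a keratin cluster and ERBB2, had the most protein-coding starts of the 21 bins, 265, but 118 regions, or 0.445 per start.

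**Figure D1:**
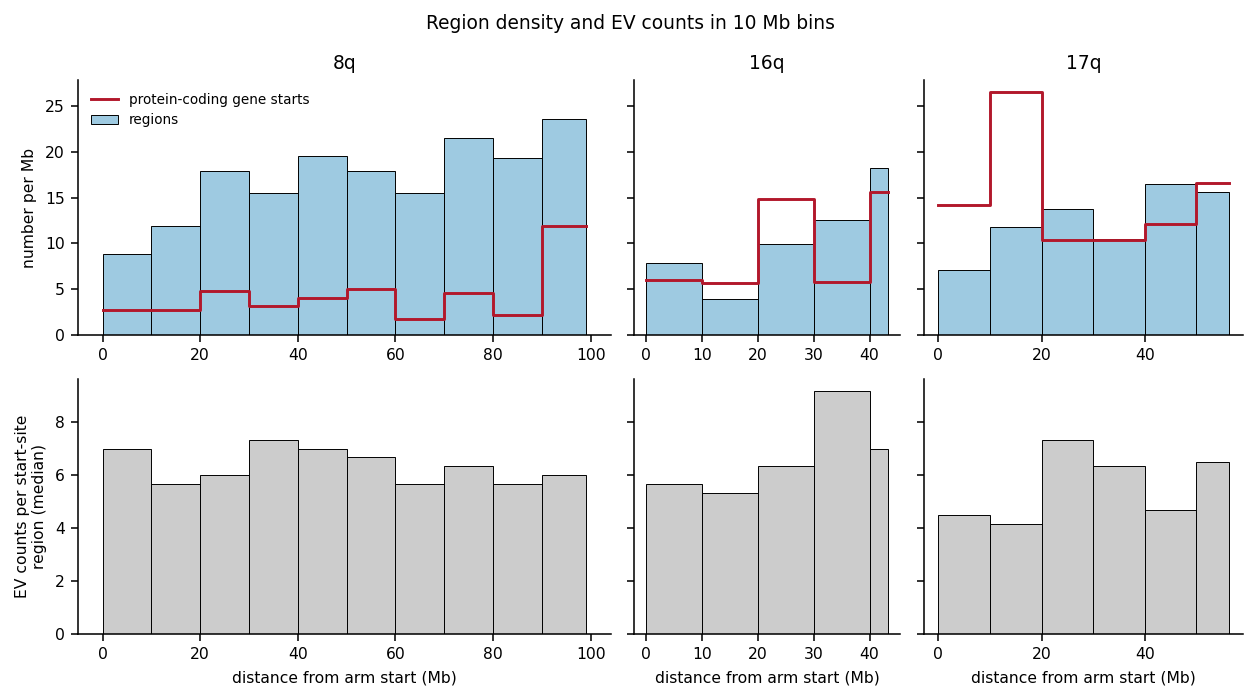
Upper row: regions per Mb (bars) and protein-coding gene starts per Mb (red line) in 10 Mb bins, against the distance from the start of each arm in Mb. Lower row: median EV count (mean of 3 libraries) of retained regions within 1 kb of a start site in each bin; the 8q bars above the red line in every bin and the tall 16q bar at 30 to 40 Mb, 9.17 counts, are the features to see.

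The baseline in EV cells was read as the mean count per region on an arm divided by the mean over the other autosomes, in each EV library. Over all retained regions this relative level was 0.782 ± 0.127 on 8q, 1.01 ± 0.118 on 16q and 0.858 ± 0.119 on 17q (SD, n = 3). The choice of regions decided this value. Without regions over a mean of 100 counts, which on the other autosomes numbered 131 and on the arms 0, it was 0.999 ± 0.1 on 8q, 1.29 ± 0.0793 on 16q and 1.11 ± 0.207 on 17q. Among regions within 1 kb of a start site it was 1.21 ± 0.0833 on 8q, 1.20 ± 0.0524 on 16q and 0.979 ± 0.203 on 17q. Among regions beyond 1 kb it was 0.580 ± 0.145, 0.820 ± 0.182 and 0.670 ± 0.0555.

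Start-site regions thus stood above the other autosomes on 8q and 16q in every EV library. The 3 EV libraries gave 1.16, 1.30 and 1.16 on 8q and 1.21, 1.24 and 1.14 on 16q. On 17q they gave 1.14, 0.752 and 1.04, so replicate 2 fell below 1 and the arm did not differ from the other autosomes beyond the spread between libraries. The median start-site region held 6.33 EV counts on 8q, 6.50 on 16q and 5.33 on 17q, against 5.33 over the other autosomes. Among the 27 segments 16q ranked 2 and 8q shared rank 3 by this median. Chromosome 10 ranked 1 with 6.67, and chromosome 14 and the part of chromosome 16 before the arm also had 6.33, so the level was not particular to the arms.

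Within the arms the EV level was uneven. The median start-site region of the 16q bin from 77 to 87 Mb held 9.17 EV counts over 44 regions, the highest of the 21 bins, against 5.33 to 7.0 in the other 4 bins of 16q. On 8q the bins ran from 5.67 to 7.33 with no steady course. On 17q the bin from 47 to 57 Mb held 7.33 counts and the 2 bins before it 4.50 and 4.17.

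Among regions without a mitochondrial match, the strongest of each arm in EV cells were mostly promoters. On 8q they covered the starts of RRM2B (66.4 ± 10.9 normalised CPM, the counts scaled to a common library size with TMM factors; SD, n = 3), which encodes a ribonucleotide reductase subunit induced by p53, of ELOC and TMEM70 (53.9 ± 6.80 CPM) and of ENY2 (49.2 ± 10.7 CPM), a subunit of chromatin-modifying and mRNA export complexes. On 16q they were an intron of GSE1 (55.6 ± 32.3 CPM), the start of MON1B (45.5 ± 9.50 CPM) and a region 33 bp from the start of AKTIP (45.4 ± 2.75 CPM). On 17q they were the start of SP2 (36.8 ± 14.0 CPM), an intergenic region at chr17:56699504-56699801 (33.8 ± 7.46 CPM) and the start of P4HB (32.9 ± 11.9 CPM), which encodes protein disulfide isomerase. None of these 9 was called in EHF+CDX1 cells against EV cells.

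EHF alone and CDX1 alone left every arm without a called region. A region is called where its adjusted p is under 0.05 in the quasi-likelihood test of edgeR with Benjamini-Hochberg adjustment over all 30154 regions tested, which included all 2793 on the arms. Against EV cells 0 regions were called on the arms in EHF cells (0.00995% of all regions tested were) and 0 in CDX1 cells (0.0% of all). At an unadjusted p under 0.05 there were 138 and 103 of 2793 on the arms, against 1496 and 1150 of 30154 over all regions tested. By DESeq2 the counts of called regions on the arms were also 0 and 0. With the replicate number as a block in the fit, a region on the arms was called in EHF cells. The median log2 change over regions in EHF cells was -0.03 on 8q, 0.04 on 16q and 0.26 on 17q, against 0.02 off the arms. In CDX1 cells it was -0.02, 0.04 and 0.09, against 0.0018 off the arms. Of the 17q regions, 31.1% had a negative log2 change in EHF cells, against 48.4% off the arms. EHF cells and CDX1 cells were each compared with the same EV libraries.

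In EHF+CDX1 cells the arms parted. Against EV cells 31 regions were higher and 12 lower on 8q, 0 higher and 11 lower on 16q, and 1 higher and 2 lower on 17q. Over all regions 1.79% were called higher and 0.779% lower. The 31 of 1695 on 8q were a share near this background, and the 11 of 403 lower on 16q a larger one. The median log2 change was 0.12 on 8q, -0.48 on 16q and 0.13 on 17q, against 0.20 off the arms, and 74.1% of 16q regions had a negative log2 change against 41.4% off the arms. The median over all regions tested was 0.18, and under every scaling and library omission tried the 16q median lay below it, by 0.302 to 0.738 on the log2 scale. When EHF+CDX1 replicate 2 was left out, 4 regions were called on 8q, 1 on 16q and 0 on 17q, and without EV replicate 2, 10, 1 and 2. Under scaling by library total and with limma on the deposited log2 CPM, 0 were called on each arm, and DESeq2 called 6, 1 and 1. Shares called over all regions under these settings are not given, so these counts do not compare the arms with the series.

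**Figure D2:**
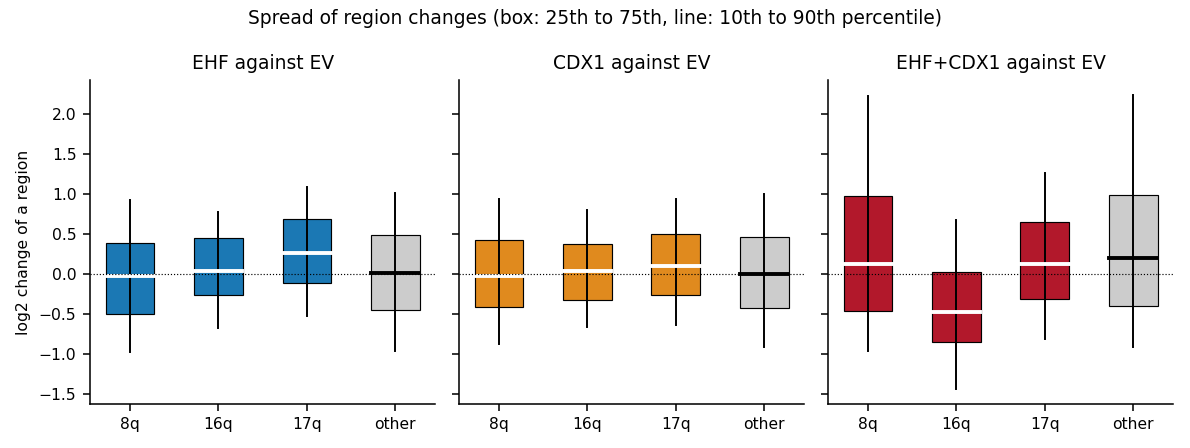
Log2 change of retained regions for each line against EV (edgeR), for the 3 arms and for the regions off the arms (other). Boxes span the 25th to 75th percentile with the median as a bar, and lines the 10th to 90th; in EHF+CDX1 cells the 16q median is at -0.48 and the others between 0.12 and 0.20.

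Summed over whole arms, 16q was lower in EHF+CDX1 cells in each library than in any other library. The normalised 16q sums were 14584, 15586 and 12781 CPM for EV. The EHF libraries had 14844, 15012 and 14979, the CDX1 libraries 15051, 15370 and 14182, and the EHF+CDX1 libraries 12377, 8278 and 12266. The 3 EHF+CDX1 libraries lay below the other 9, with replicate 2 far below the other 2. The log2 change against EV was -0.38 ± 0.16 (SE), with an adjusted p of 0.12 in edgeR over 27 segments, of which 22.2% were called (0.0% in EHF cells and 0.0% in CDX1 cells against EV). Against EHF cells it was -0.45 ± 0.16 (adjusted p 0.0759) and against CDX1 cells -0.44 ± 0.16 (adjusted p 0.0744). The exact two-sided permutation test gave 0.10 for each of these comparisons, the smallest p that 3 against 3 libraries allow. The change against EV passed the threshold without EHF+CDX1 replicate 1 (-0.51, adjusted p 0.0366), in regions within 1 kb of a start site (-0.45, adjusted p 0.0068) and without replicate 2 of every group (-0.25, adjusted p 0.0239). With EHF+CDX1 replicate 2 left out it was -0.28 ± 0.09 (adjusted p 0.0505). With the replicate number as a block in the fit, the 16q sum was called against EV, EHF and CDX1 cells.

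Start-site regions gave the same picture in the relative level used for the baseline. On 16q the EV level of 1.20 ± 0.0524 stood beside 1.25 ± 0.012 for EHF, 1.25 ± 0.0221 for CDX1 and 0.896 ± 0.124 for EHF+CDX1 cells (SD, n = 3). The EHF+CDX1 libraries gave 0.975, 0.754 and 0.961, all below 1, while the other 9 lay between 1.14 and 1.28. The exact permutation p was 0.10 against each of the other groups. On 8q the level in EHF+CDX1 cells was 1.24 ± 0.0453 and within the spread of the 1.21 ± 0.0833 in EV cells (exact permutation p 0.60), and on 17q it was 0.991 ± 0.116 against 0.979 ± 0.203 (exact permutation p 0.80). In EHF cells the 17q start-site level was 1.08 ± 0.163 (exact permutation p 0.50 against EV). Over all retained regions it was 1.10 ± 0.104 against 0.858 ± 0.119 in EV cells (exact permutation p 0.10). Beyond 1 kb of a start it was 0.989 ± 0.0943 against 0.670 ± 0.0555 (exact permutation p 0.10). Without regions over a mean of 100 counts it was 1.31 ± 0.185 against 1.11 ± 0.207 (exact permutation p 0.30).

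**Figure D3:**
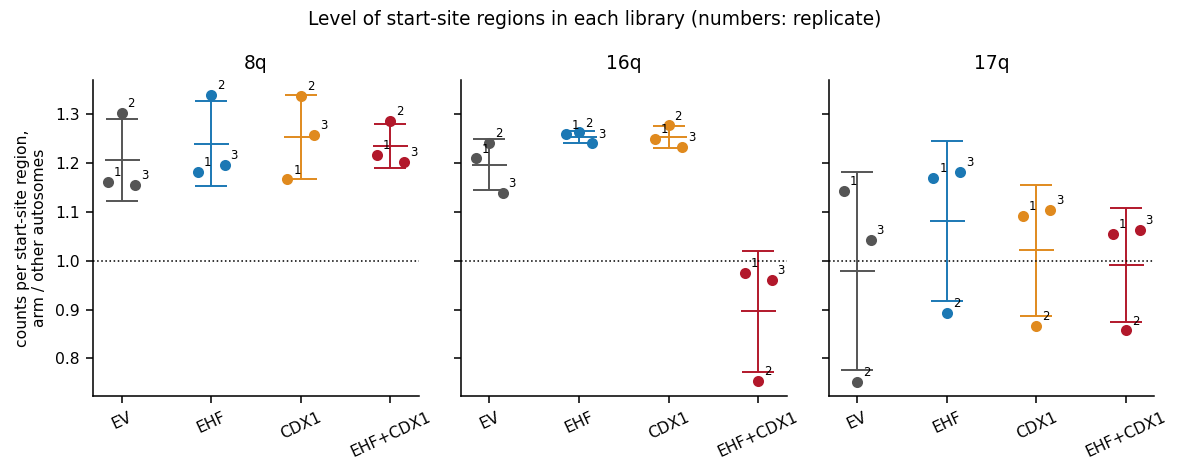
Mean count per region within 1 kb of a start site on each arm divided by the mean over the other autosomes, in each library (points, numbered by replicate; bars, mean ± SD of 3). On 16q the EHF+CDX1 libraries lie at 0.754 to 0.975 and the other 9 at 1.14 or above; on 17q replicate 2 is lowest in every group.

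The sums of 8q and 17q did not pass this test in any line in the fit without a replicate block. With the replicate number as a block, the 17q sum was called in EHF cells (0.22). 8q sums were 44136, 53253 and 41739 CPM in EV and 50692, 51784 and 47486 in EHF+CDX1 libraries, which overlap, with a log2 change of 0.11 ± 0.09 (adjusted p 0.381). 17q sums were 24653, 17186 and 21213 CPM in EV and 25209, 17263 and 25152 in EHF+CDX1 libraries, with a log2 change of 0.10 ± 0.19 (adjusted p 0.733). In EHF cells the changes were 0.0006 ± 0.09 on 8q, 0.06 ± 0.16 on 16q and 0.22 ± 0.19 on 17q, and in CDX1 cells 0.03 ± 0.09, 0.05 ± 0.16 and 0.11 ± 0.19 (adjusted p 0.532 to 0.995 in edgeR). On 17q, replicate 2 was the lowest library of every group.

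Of the 21 bins of 10 Mb, the 16q bin from 77 to 87 Mb was the one called in EHF+CDX1 cells. With the replicate number as a block in the fit, more bins were called, as given below. The 16q bin from 77 to 87 Mb holds the genes of CDH13, a cadherin anchored to the membrane by a lipid, of MAF and of the signalling enzyme PLCG2. Its sums were 5134, 6377 and 4696 CPM for EV and 4782, 5713 and 4804 CPM for EHF. The CDX1 libraries had 5475, 6200 and 4960 CPM and the EHF+CDX1 libraries 4005, 2362 and 3737 CPM, all below the other 9. The bin fell by 0.69 ± 0.20 on the log2 scale against EV (adjusted p 0.0242 in edgeR over 313 bins), to 0.621 of the EV level. Over all bins 2.24% were called lower and 17.6% higher in this comparison, and 0.0% in EHF cells and 0.0% in CDX1 cells against EV. Against CDX1 cells the change was -0.72 ± 0.20 (adjusted p 0.0268; 1.6% of bins were lower) and against EHF cells -0.60 ± 0.20 (adjusted p 0.0525; 1.28% of bins were lower). Of its 126 regions, 87.3% had a negative log2 change, with a median of -0.84, and 9 of the 11 lower 16q regions lay in it. The change held in regions within 1 kb of a start site (-0.68 ± 0.15, adjusted p 0.0098) and in regions beyond it (-0.77 ± 0.25, adjusted p 0.0316). Without EHF+CDX1 replicate 2 it was -0.55 ± 0.17 (adjusted p 0.0659), without EV replicate 2 -0.55 ± 0.20 (adjusted p 0.0723), and without replicate 2 of every group -0.44 ± 0.09 (adjusted p 0.0041).

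The other 16q bins changed by -0.31 ± 0.15, 0.01 ± 0.16, -0.19 ± 0.15 and -0.36 ± 0.22 from the centromeric end to the tip, and none passed the test. The same bin that was lowest in EHF+CDX1 cells had the highest EV counts per start-site region of the 21 bins. On 8q the bins ran from -0.22 ± 0.17 (126 to 136 Mb) to 0.40 ± 0.20 (106 to 116 Mb, adjusted p 0.156). That last bin, the one with the fewest protein-coding starts, had a median region change of 0.74 and 8 called higher regions of 155, the most of the 21 bins, where 1.79% of all regions were called higher. Without EHF+CDX1 replicate 2, 3 of these 8 were still called. On 17q the bins ran from -0.15 ± 0.16 (47 to 57 Mb) to 0.48 ± 0.25 (37 to 47 Mb, adjusted p 0.196). In EHF cells the widest change of a bin was 0.40 ± 0.21 (17q, 67 to 77 Mb, adjusted p 0.725) and in CDX1 cells 0.26 ± 0.21 in the same bin. Of the arm bins, 0 in EHF cells and 0 in CDX1 cells had an unadjusted p under 0.05, and DESeq2 called 0 and 0.

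**Figure D4:**
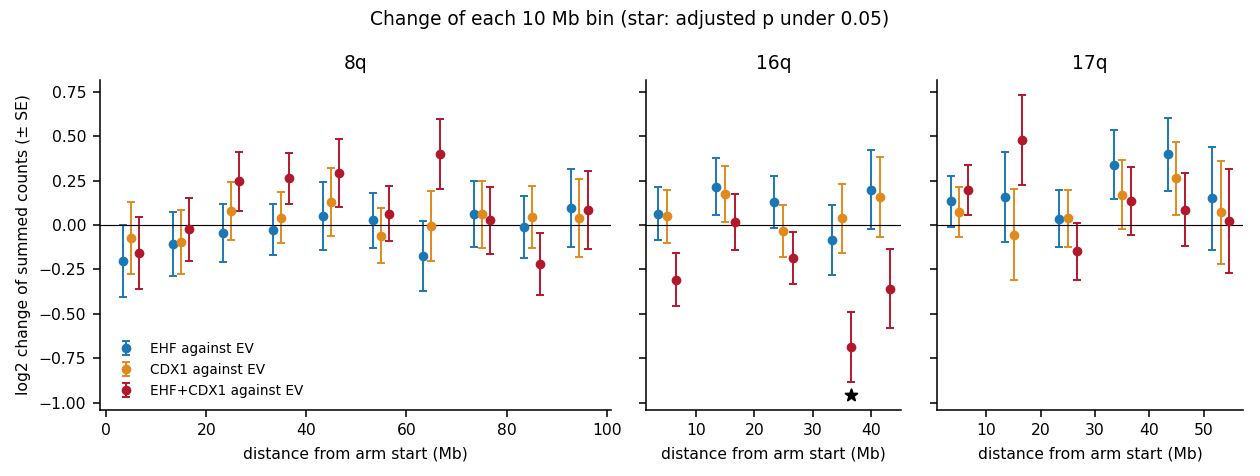
Log2 change of the summed counts of each 10 Mb bin (points, ± SE, edgeR) against the distance from the start of the arm in Mb, for each line against EV. The star marks the 16q bin at 30 to 40 Mb, at -0.69 in EHF+CDX1 cells; no EHF or CDX1 point is marked.

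The 11 lower regions of 16q started between 72877578 and 89193174. Introns held 7, exons 3 and intergenic sequence 1, and 3 lay within 1 kb of a start site. None held a mean of 20 counts in EV cells, so the count minimum for naming was not met. The 2 of smallest p are given first, and the others were chosen after their values were seen. A region in an exon of CMIP, chr16:81711743-81711902, 7886 bp from the nearest start, held 10, 11 and 6 counts in the EV libraries. It held 11, 22 and 6 in EHF, 7, 31 and 1 with CDX1 and 3, 5 and 1 with both factors. It fell by 2.79 ± 0.62 on the log2 scale (adjusted p 0.0043). In an intron of non-coding genes at chr16:77236086-77236419, EV libraries held 15, 37 and 7 counts and EHF+CDX1 libraries 9, 25 and 7. After scaling these were 16.5, 25.6 and 10.5 CPM against 5.34, 5.64 and 5.81, and the change was -1.70 ± 0.41 (adjusted p 0.0092).

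Promoters were among them. At the start of C16orf46, chr16:81077144-81077331, the 3 EV libraries held 14.3, 19.3 and 21.0 CPM, the EHF libraries 20.1, 11.8 and 19.2, the CDX1 libraries 19.2, 22.2 and 14.2 and the EHF+CDX1 libraries 7.12, 7.22 and 5.81. The EHF+CDX1 libraries lay together below all others, with a change of -1.40 ± 0.39 (adjusted p 0.0317), called against EHF (adjusted p 0.037) and against CDX1 (adjusted p 0.0171) too. At the start of MPHOSPH6, which encodes a protein of ribosomal RNA processing, the change was -1.49 ± 0.43 (adjusted p 0.0376). In introns, 2 regions of CDH13 fell by 1.97 ± 0.60 and 2.33 ± 0.55 on the log2 scale, 1 of ZFHX3, a homeobox transcription factor, by 2.19 ± 0.59 and 1 of CDH15, a cadherin of muscle, by 2.36 ± 0.63. The second CDH13 region, chr16:82654005-82654171, had EV values of 3.29, 22.8 and 6.01 CPM and EHF+CDX1 values of 3.56, 2.26 and 0.83 CPM, so the groups overlapped and EV replicate 2 carried the mean. Without EHF+CDX1 replicate 2, 1 of the 11 was still called, an intronic region of a non-coding gene at chr16:80924620-80924782 (-3.06 ± 0.71, adjusted p 0.0241).

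In the other comparisons of EHF+CDX1 cells, 13 regions on 16q were called lower against EHF (0.7% of all regions) and 10 against CDX1 (0.541% of all), and 5 and 3 of the 11 were among those. All these comparisons share the EHF+CDX1 libraries.

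The 31 higher regions of 8q were weak in EV cells. In 28 of them each EV library held at most 3 counts, and in 6 all EV libraries held 0. Peaks of all samples were merged and regions were tested where 1 library reached a CPM of 3, and 18 of the 31, with all 6 at 0 in EV, did so in EHF+CDX1 libraries alone. Low EV counts in these 18 are therefore partly set by how regions were selected. Introns held 14, intergenic sequence 12 and exons 5, 19 lay over 100 kb from the nearest protein-coding start, and 25 were of the shortest length, 151 bp. Of their EHF+CDX1 counts, 54.3% to 87.7% came from replicate 2, with a median of 73.2%. That library was also the deepest of its group, with 912672 retained counts against 375268 in replicate 1 and 253819 in replicate 3. Without that library 3 were still called, both KCNV1 regions and the EMC2 region. The 6 regions at 0 in EV cells were at least 4.82-fold to 9.50-fold higher in EHF+CDX1 cells, against a floor of 3 counts over the group of EV libraries. With EHF+CDX1 replicate 2 left out these bounds ran from 2.44-fold to 6.28-fold. Since these 6 regions entered the test through EHF+CDX1 libraries alone, the bounds describe selected regions.

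The KCNV1 gene, which encodes a modifying subunit of voltage-gated potassium channels, had 2 of these 3 regions. At its start, chr8:109975578-109975853, EV libraries held 3, 2 and 2 counts, EHF libraries 4, 1 and 2, CDX1 libraries 0, 4 and 0 and EHF+CDX1 libraries 56, 96 and 12. The lowest EHF+CDX1 library, at 9.97 CPM, lay above the highest of the other 9, at 3.66 CPM. The change was 3.18 ± 0.57 against EV (adjusted p 0.000162), 3.72 ± 0.56 against EHF (adjusted p 1.95e-06) and 4.39 ± 0.62 against CDX1 (adjusted p 2.26e-07), on the log2 scale. The nearby exonic region chr8:109974434-109974600 held 2 EV counts in all and 97 in EHF+CDX1 libraries, a ratio of 20.04 with an exact 95% counting interval of 5.40 to 168. Counting intervals cover counting error only, since amplified reads are not independent molecules.

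Other higher 8q regions lay at promoters, and like the KCNV1 start they fell outside the naming rule and were chosen after their values were seen. At HNF4G, which encodes a nuclear receptor of the intestinal epithelium, a region 298 bp from the start (chr8:75407343-75407616) held 2.20, 4.14 and 4.51 CPM in the EV libraries. EHF libraries held 7.32, 6.50 and 6.40, CDX1 libraries 9.62, 7.24 and 3.55, and EHF+CDX1 libraries 14.2, 17.2 and 15.8. The EHF+CDX1 libraries lay above the other 9 and close together, with a change of 2.10 ± 0.50 (adjusted p 0.0088), although against EHF (adjusted p 0.0707) and CDX1 (adjusted p 0.116) it was not called. At SQLE, the squalene epoxidase of cholesterol synthesis, EV libraries held 8.78, 3.45 and 4.51 CPM and EHF+CDX1 libraries 15.4, 18.7 and 12.5, with a change of 1.54 ± 0.47 (adjusted p 0.0462), not called against EHF (adjusted p 0.275) or CDX1 (adjusted p 0.0915). At DECR1, a reductase of mitochondrial fatty acid oxidation, EV libraries held 3.29, 8.29 and 3.01 CPM, and the EHF, CDX1 and EHF+CDX1 libraries all lay above them, between 10.1 and 20.8 CPM. Its change was 1.67 ± 0.44 in EHF+CDX1 cells (adjusted p 0.0182), with 1.28 in EHF and 1.78 in CDX1 cells, which were not called. At EMC2, a subunit of the membrane protein insertase of the endoplasmic reticulum, 3 EV counts in all stood against 70, a ratio of 9.64 with an exact counting interval of 3.17 to 47.9. The EMC2 region had log2 changes of 2.44 in EHF and 2.39 in CDX1 cells, neither called, and EHF+CDX1 cells were not called against either (adjusted p 0.394 and 0.402).

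The 8q regions of largest change with a mean of at least 20 counts were mostly far from genes. At chr8:69357128-69357278 the EV libraries held 0 counts and the EHF+CDX1 libraries 12, 53 and 4, at least 9.50-fold higher, or 5.58-fold without replicate 2. At chr8:114637082-114637232 they held 1, 0 and 0 against 8, 56 and 3. In an intron of CSMD3, chr8:112500865-112501015, they held 1, 0 and 0 against 7, 52 and 5, and in an intron of non-coding genes at chr8:82129972-82130122, 1, 1 and 0 against 13, 79 and 3. In each of these, replicate 2 had most of the EHF+CDX1 counts. A region under that mean, chosen after its values were seen, lay in an intron of CDH17, the liver and intestine cadherin, at chr8:94191986-94192136. EV libraries held 0 counts there and EHF+CDX1 libraries 14, 33 and 4, at least 7.02-fold higher, or 6.28-fold without replicate 2. This region and those named before it in this paragraph passed the CPM filter in EHF+CDX1 libraries alone. Their low EV counts and fold bounds are therefore partly set by how regions were selected. Nearer to the CDH17 start, 0 regions were called. The region on the CDH17 start changed by 3.03 ± 0.99 (adjusted p 0.0713 in edgeR) and an intergenic region within 5 kb by -1.18 ± 0.70 (adjusted p 0.35).

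**Figure D5:**
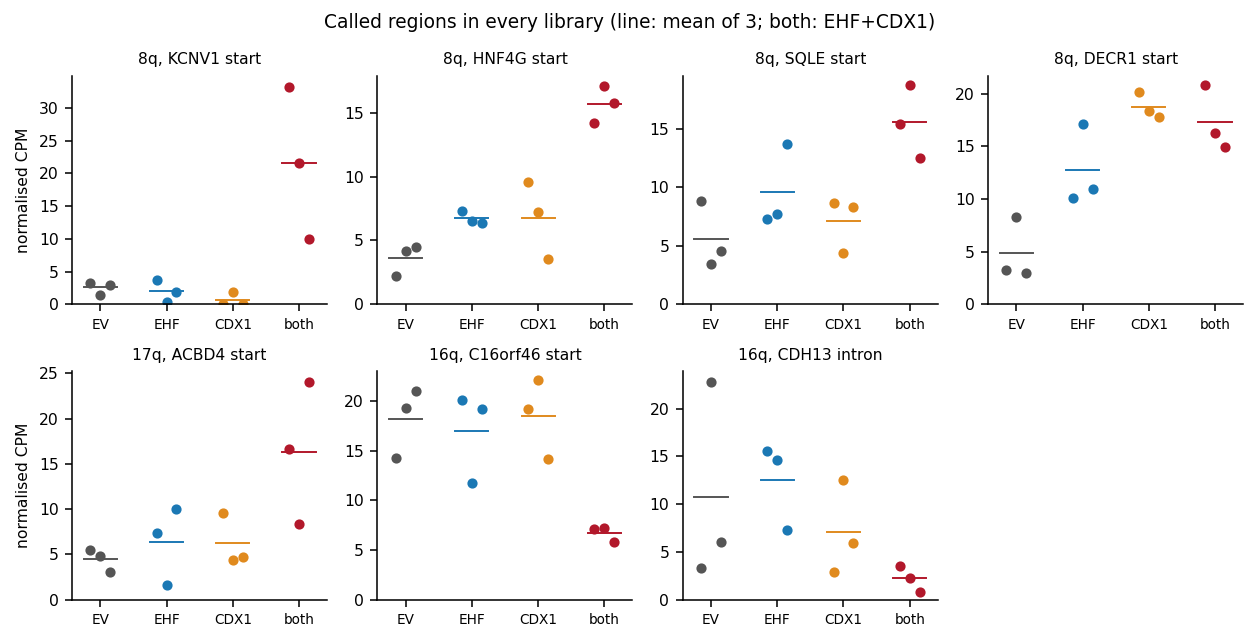
Normalised CPM of 7 called regions in every library (points; lines, mean of 3; both, EHF+CDX1), each panel on its own axis from 0. The HNF4G and C16orf46 points of EHF+CDX1 cells lie apart from all other libraries, while the EV points of the CDH13 intron spread from 3.29 to 22.8 CPM.

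Of the 12 lower 8q regions, 4 matched mitochondrial DNA, and the mitochondrial share of the counts, given above, was also lower in EHF+CDX1 than in EV libraries. Its part in these changes was not tested. The strongest, chr8:46829417-46829571, held 46.1, 82.2 and 104 CPM in EV and 41.0, 12.9 and 33.2 in EHF+CDX1 libraries, and a second, chr8:72985623-72985777, 20.9, 21.4 and 33.1 against 12.5, 6.77 and 12.5. Of the other 8, a region at chr8:134892632-134892846 fell by 2.06 ± 0.44 on the log2 scale (adjusted p 0.0025), from 13.2, 24.9 and 13.5 CPM to 4.75, 4.74 and 2.49, and was still called without EHF+CDX1 replicate 2 (-2.21 ± 0.53, adjusted p 0.0393). Along with a pair of neighbours at chr8:139215222-139215504 (-1.42 ± 0.39) and chr8:139215967-139216117 (-1.70 ± 0.49) it lay in intergenic sequence over 100 kb from a protein-coding start.

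On 17q the start of ACBD4, which encodes an acyl-CoA binding protein of peroxisomes, was the 1 higher region (chr17:45135446-45135680). EV libraries held 5.49, 4.84 and 3.01 CPM, EHF libraries 7.32, 1.63 and 10.1, CDX1 libraries 9.62, 4.34 and 4.73 and EHF+CDX1 libraries 16.6, 8.35 and 24.1. The change was 1.73 ± 0.51 (adjusted p 0.042), a call lost on leaving out EHF+CDX1 replicate 2. An intergenic region at chr17:70864011-70864161 fell by 2.91 ± 0.76 (adjusted p 0.019), from 3, 10 and 6 counts to 1, 5 and 0.

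The sequences of 3 called lower regions outside exons are shown, since they are the intronic and intergenic elements behind the lower calls in ZFHX3 and CDH13 and on 17q. They are plus-strand bases of hg38 in lower case, with a CDX core (TTTATG or TTTATT) or an ETS core (AGGAAGT or CGGAAGT), on either strand, in capitals.
ZFHX3 intron, chr16:72877578-72877730: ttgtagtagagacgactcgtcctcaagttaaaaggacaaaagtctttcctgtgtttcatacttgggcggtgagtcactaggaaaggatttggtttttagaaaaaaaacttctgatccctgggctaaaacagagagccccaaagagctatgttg
CDH13 intron, chr16:82654005-82654171: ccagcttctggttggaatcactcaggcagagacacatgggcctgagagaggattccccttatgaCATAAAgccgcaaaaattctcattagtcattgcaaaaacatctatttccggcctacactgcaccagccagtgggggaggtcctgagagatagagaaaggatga
Intergenic, chr17:70864011-70864161: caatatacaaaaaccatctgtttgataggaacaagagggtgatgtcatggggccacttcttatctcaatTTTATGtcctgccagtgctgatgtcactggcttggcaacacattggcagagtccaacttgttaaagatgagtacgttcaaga

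A CDX core was present in this CDH13 sequence and the intergenic one and no ETS core in any of the 3. The other called CDH13 region, chr16:82632066-82632219, held neither. Across the series 15.5% of regions held a CDX core, with 20.1% on 8q, 10.4% on 16q and 11.1% on 17q, and 10.3% held an ETS core, with 7.79%, 10.9% and 10.2%. Of the 31 higher 8q regions, 10 held a CDX core and 2 an ETS core, and of the 12 lower ones 4 and 1. Of the 11 lower 16q regions, 1 held a CDX core and 3 an ETS core. Regions differ in length and base content between the arms, and a match is a description of the letters.

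Listed genes on the arms were read through regions within 5 kb of a start. Of 20 genes of epithelial differentiation and adhesion, 9 had 29 regions, of which 1 was called higher (1.79% of all regions were) and 0 lower (0.779% of all) in EHF+CDX1 cells, with a median log2 change of 0.43 against 0.18 over all regions. The called one lay in an intron of PTK2, the focal adhesion kinase, 414 bp from a start, and held 1, 1 and 0 counts in EV against 14, 33 and 3 in EHF+CDX1 libraries, a ratio of 10.3 with an exact counting interval of 2.71 to 87.6. Its log2 changes in EHF and CDX1 cells, 2.27 and 2.50, were not called, and EHF+CDX1 cells were not called against either (adjusted p 0.433 and 0.618). The 2 genes of this list with the highest CPM over all 12 libraries, the measure of strength for each list, were JUP (plakoglobin of cell junctions) and NDRG1, whose regions changed by 0.22 ± 0.37 and 0.43 ± 0.40. CDH1, KRT20 and CDH3 were among the 11 genes with no region. In no other list was a region called in any line.

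The 7 Wnt genes with regions had 16, with a median of 0.23, and CYLD (-0.35 ± 0.36) and SOX9 (0.19 ± 0.43) were the strongest. DNA replication and cell division genes had 39 regions at 20 genes with a median of 0.06, where the starts of ATAD2 (-0.29 ± 0.38) and the cohesin subunit RAD21 (-0.43 ± 0.38) were the strongest. Developmental transcription factors had 20 regions at 14 of 27 genes and a median of 0.26, with KLF10 at -0.07 ± 0.37 and the region near PLAG1, at the start of CHCHD7, at 0.33 ± 0.41. The signalling and growth genes had 21 regions and a median of 0.59, with YWHAZ at 0.42 ± 0.36 and STAT3 at 0.27 ± 0.40. The metallothioneins, which bind zinc and copper and lie in a cluster on 16q, had 5 regions at 4 genes. Of these 5 regions, 4 in EHF cells and 5 in CDX1 cells had a positive log2 change and 0 in EHF+CDX1 cells, with medians of 0.68, 0.64 and -0.44. Over all 16q regions the medians were 0.04, 0.04 and -0.48, and 74.1% had a negative change in EHF+CDX1 cells. The metallothionein median in EHF+CDX1 cells was thus near that of the arm, and none of the 5 regions was called in any line. The MT1F start held 5, 10 and 2 counts in EV and 7, 17 and 5 in EHF+CDX1 libraries (-0.44 ± 0.56, adjusted p 0.704).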

How the data were processed

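Reads were aligned by the authors with Subread 2.0.0 (GRCh38, or hg38), who called peaks with HOMER 4.7 in each sample, merged them and counted reads with featureCounts 2.0.0, per the submitters' processing notes and the methods of the study. The deposited counts are whole reads per region without normalisation. The authors also deposited log2 CPM, used in an alternative. Members, bins and gene lists were chosen with earlier results of these data known. Regions were annotated with GENCODE 44, and those matching mitochondrial DNA (blastn 2.17.0, at least 40 bp at 80% identity) were left out of sums. Regions with a CPM of 3 in at least 1 library, 30154, were tested by edgeR 4.0.16 (TMM, quasi-likelihood, two-sided, all 12 libraries in 1 fit, common coefficient of variation 0.335) in R 4.3.3. Sums over 313 bins and 27 segments were tested in the same way, scaled by the TMM factors of the retained regions. DESeq2 1.42.0, limma 3.58.1, other filters and scalings, and leaving out each library were tried. Leaving out replicate 2 of every group and regions over a mean of 100 counts were chosen after seeing the data. Scripts were tested on simulated counts. Regions named were all bins, the 3 strongest per arm in EV, up to 5 higher and 5 lower called regions per arm with a mean of 20 counts and no overlap of groups, and regions of listed genes. On 16q no called region passed, and the 2 of smallest p, both called, were named. Results on a few items are not reported here. Intervals and the floor of 3 counts cover counting error only.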

Additional observations from a re-analysis of the deposited data

Results flagged for a closer look

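The 16q bin from 77 to 87 Mb differed between lines: its change in EHF+CDX1 cells differed from that in CDX1 cells by -0.72 ± 0.20 on the log2 scale (adjusted p 0.0268 in edgeR over 313 bins), and all 3 EHF+CDX1 libraries lay below all 3 CDX1 libraries. The call was lost on leaving out any 1 CDX1 library or EHF+CDX1 replicate 2, with values from -0.91 to -0.59 over all single omissions. Groups of 3 libraries were too small for a test of single outlying libraries.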

How the results depend on the processing

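Over region calls in EHF+CDX1 cells on 8q, 16q and 17q, scaling by library total gave 0, 0 and 0, DESeq2 6, 1 and 1, limma on deposited log2 CPM 0, 0 and 0, leaving out replicate 2 of every group (chosen after seeing the data) 5, 0 and 1, and leaving out each library 4 to 72, 1 to 13 and 0 to 13. The libraries that moved a count by over 1.5 times were EHF+CDX1 replicate 2 (4, 1 and 0), EV replicate 2 (10 and 1 on 8q and 16q), EV replicate 3 (17 and 6), EV replicate 1 (27 on 8q), EHF replicate 2 (71 and 13 on 8q and 17q), EHF+CDX1 replicate 3 (72 and 10), EHF+CDX1 replicate 1 (6 on 16q, 10 on 17q) and CDX1 replicate 2 (9 on 17q). Voom with quantile normalisation gave 5 on 17q. Same-numbered libraries were not taken as pairs in the main fit. No label says that they were prepared together, although the S numbers in the titles run in order within each replicate number. The correlations of their deviations were not all over 0.1: they ran from 0.00257 to 0.33, with 0.11 to 0.33 for replicate 2. Of 12 libraries, 8 correlated best with their own number in every other group. The p-values of the main fit thus take no account of levels shared by same-numbered libraries. With the number as a replicate block, calls were 113, 27 and 26 in EHF+CDX1 cells and 1 in EHF cells on the arms, 6 bins were called, the 16q sum was called against EV (-0.39), EHF (-0.45) and CDX1 (-0.45), the 16q bin from 77 to 87 Mb also against EHF (-0.60), and the 17q sum in EHF cells (0.22). Bins called in EHF+CDX1 cells numbered 2 with mitochondrial matches and exons kept, 2 beyond 1 kb of a start, 4 at 5 Mb and 6 without replicate 2 of every group, and 0 to 1 on leaving out each library. Shares of all regions or bins called under these settings are not given, so these counts do not compare the arms with the series.

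The 16q sum in EHF+CDX1 cells was also called by DESeq2 (-0.38), with mitochondrial matches and exons kept (-0.60), within 1 kb of a start (-0.45), without replicate 2 of every group (-0.25) and without regions over a mean of 100 counts (-0.46), and ran from -0.51 to -0.28 on leaving out each library. Sums changed sign with mitochondrial matches and exons kept: on 8q -0.22 (EHF), -0.11 (CDX1) and -0.37 (EHF+CDX1), and against EHF -0.15 and CDX1 -0.27; on 16q -0.16 (EHF) and -0.10 (CDX1); on 17q -0.29, -0.27 and -0.67, the last called. On 8q they turned by DESeq2 (-0.044 in EHF, -0.012 in CDX1), within 1 kb of a start (-0.011 in EHF, -0.012 against CDX1) and without regions over 100 counts (-0.033 in EHF, -0.0069 in CDX1); on 17q within 1 kb of a start (-0.0056 in EHF+CDX1), without replicate 2 of every group (-0.0040 in CDX1, 0.042 against CDX1) and by DESeq2 (0.038 against CDX1). The 16q bin from 77 to 87 Mb turned in EHF cells under scaling by summed counts (0.047) and in CDX1 cells by DESeq2 (-0.0072) and without regions over 100 counts (-0.0013). Leaving out each library gave, on 8q, -0.074 to 0.11 (EHF), -0.038 to 0.14 (CDX1) and -0.021 to 0.13 (against CDX1); on 16q -0.014 to 0.13 (EHF) and -0.021 to 0.12 (CDX1); on 17q -0.017 to 0.24 (CDX1), -0.025 to 0.23 (EHF+CDX1) and -0.14 to 0.079 (against CDX1); and in the bin -0.17 to 0.054 (EHF) and -0.054 to 0.17 (CDX1). The cause of these changes was not tested.

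EV levels of 8q, 16q and 17q were 0.560, 0.462 and 0.918 with mitochondrial matches kept, 1.21, 1.20 and 0.979 within 1 kb of a start, 0.580, 0.820 and 0.670 beyond it, 1.05, 1.37 and 1.17 as ratios of medians, and 0.999, 1.29 and 1.11 without regions over 100 counts. With 2 to 22 counts in the median region, single weak regions are not resolved at this depth.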
